A study of Mus with 9 samples.

Results

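The 8 genes described here make up the Klotho, vitamin D and phosphate axis of the kidney. They are Kl, Fgfr1, Slc34a1, Slc34a3, Slc20a2, Cyp27b1, Cyp24a1 and Vdr, chosen by symbol from a table of 54532 genes, and all 8 were among the 15902 genes with enough counts to be tested. RNA of the kidney was sequenced from 9 male C57BL/6 mice, 3 in each of the groups 18 mo, 21 mo and 21 mo/O304, with 1 library per mouse. Every mouse had lost a kidney by unilateral nephrectomy at the age of 18 months, so all libraries come from the remaining kidney. The 18 mo mice were killed 1 week after surgery. The 21 mo mice then received intraperitoneal saline every day for 12 weeks, and the 21 mo/O304 mice received O304, a small-molecule activator of the energy-sensing kinase AMPK, at 10 mg/kg/day for the same 12 weeks. Age, time after surgery and the course of injections change together between the 18 mo group and the others and cannot be told apart.

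Phosphate balance is set in the proximal tubule, where sodium-coupled carriers of the Slc34 family take filtered phosphate back from the urine. The bone hormone FGF23 restrains these carriers by binding an FGF receptor, chiefly FGFR1, together with its co-receptor Klotho, which is made mostly in distal and also in proximal tubules. The same hormone lowers active vitamin D, since it represses Cyp27b1, the hydroxylase that makes calcitriol, and induces Cyp24a1, the hydroxylase that degrades it. Calcitriol acts through the vitamin D receptor, encoded by Vdr, which in turn induces Cyp24a1. Loss of Klotho in mice is known for high phosphate, high calcitriol and features of early ageing, and Klotho is known to be low in injured kidneys.

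Levels are given as CPM, counts scaled to a common library total after TMM normalization, when libraries are compared within a gene, and as the authors' FPKM, which is per gene length, when genes are compared with each other. The counts on genes summed to between 15636378 and 18396725 per library. The 21 mo libraries were the least alike, with a lowest Pearson correlation of log2 CPM across genes of 0.881 between them, against 0.976 within the 18 mo group and 0.972 within the 21 mo/O304 group. For this reason the 3 mice of the 21 mo group are given separately for each of the 8 genes. Some genes of the wider pathway are given only as group means with SD or as fold changes. Markers of proximal tubule, thick limb and distal tubule were detected in every library, as a kidney sample should show. Of 5 markers of bone and parathyroid, the tissues that make FGF23 and PTH, all were at 0 counts in 8 libraries and 4 in the other, and Fgf23 itself had 0 counts in all 9 libraries, which allows at most 0.201 CPM in any library. The hormone that Klotho serves was thus not detectable as a transcript of the kidney at this depth.

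Per gene length the medians of the 8 genes ranged from 2.76 to 941 FPKM. Slc34a1, which encodes NaPi-IIa, the main phosphate carrier of the mouse proximal tubule, had a median of 941 FPKM over the 9 libraries and lay above 99.8% of tested genes by its mean FPKM. Kl followed with a median of 86.1 FPKM, Vdr with 50.4 FPKM and Cyp24a1 with 38.9 FPKM. Slc34a3, which encodes the second carrier NaPi-IIc, had a median of 12.6 FPKM, Slc20a2, which encodes the carrier PiT-2, 9.63 FPKM and Fgfr1 5.09 FPKM. Cyp27b1 was the lowest at 2.76 FPKM. Slc34a1 exceeded Kl in 9 of 9 libraries, Cyp24a1 exceeded Slc34a3 in 9 of 9 and Slc20a2 exceeded Fgfr1 in 9 of 9. The other neighbours changed places between libraries. Kl exceeded Vdr in 7 libraries, Vdr exceeded Cyp24a1 in 4, Slc34a3 exceeded Slc20a2 in 7 and Fgfr1 exceeded Cyp27b1 in 8. The range over the 9 libraries was widest for Cyp27b1, where the highest FPKM was 29.7 times the lowest, and for Slc34a3, at 25.1 times. It was narrowest for Slc20a2 at 1.53 times and Fgfr1 at 1.71 times.

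**Figure D1:**
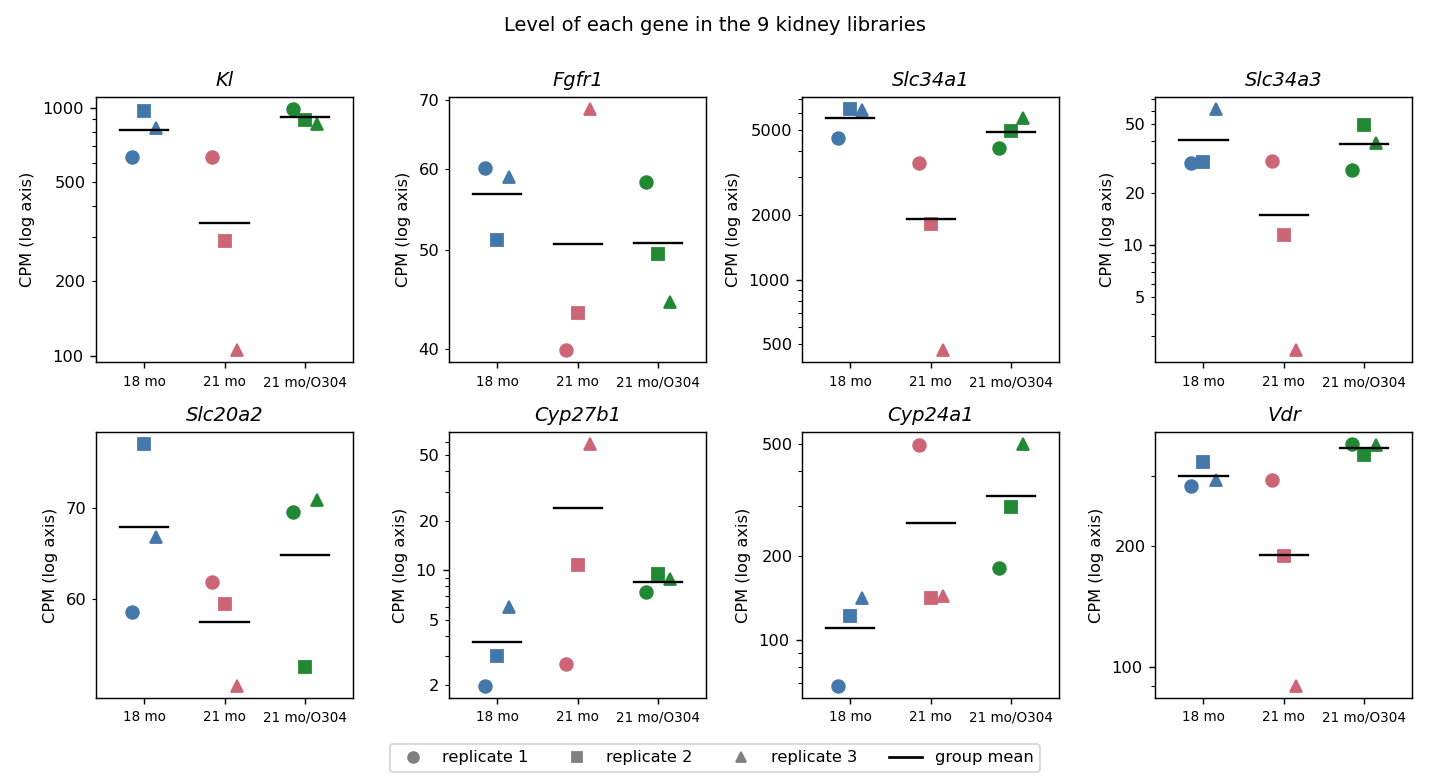
TMM-normalized CPM (log axis) of the 8 genes in each of the 9 libraries, by group, with a symbol for each replicate and a line at the group mean. In Kl, Slc34a1, Slc34a3, Vdr and Slc20a2 replicate 3 of the 21 mo group is the lowest of all 9 libraries, while in Cyp27b1 and Fgfr1 it is the highest.

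Kl (ENSMUSG00000058488) encodes Klotho and lies on chromosome 5 from 150952607 to 150993817, plus strand, in GRCm38. Its level was 635, 970.1 and 827 CPM in replicates 1 to 3 of the 18 mo group. It was 633, 291 and 105 CPM in the 21 mo group, and 992, 895 and 859.7 CPM in the 21 mo/O304 group. In CPM all 3 of the 21 mo mice were below all 3 of the 18 mo mice, although replicate 1 missed overlap by little. In FPKM replicate 1 of the 21 mo group, at 65.8, was above replicate 1 of the 18 mo group, at 65.3, so the groups overlapped. Replicate 3 of the 21 mo group held 7.72 times less Kl than the 18 mo mean in CPM. The mice given O304 lay in a narrow band that overlapped the 18 mo range. For 21 mo versus 18 mo the log2 fold change was −1.24 (SE 0.52), with an adjusted p of 0.176 by the quasi-likelihood method of edgeR, for a level 2.37-fold lower. Under O304, relative to 21 mo, it was 1.42 (SE 0.52, adjusted p = 0.198, edgeR), or 2.67-fold higher, and neither passed the threshold of 0.05. The first was −2.02 without replicate 1 of the 21 mo group, where it passed (adjusted p = 0.0124, edgeR), and −0.83 without replicate 3. The second was 2.20 without replicate 1, where it passed too (adjusted p = 0.0119, edgeR), and 0.99 without replicate 3. Against the 18 mo group the O304 mice differed by 0.18 (SE 0.51, adjusted p = 0.949, edgeR).

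Slc34a1 (ENSMUSG00000021490, chromosome 13, 55398187 to 55415592, plus strand) held 4588, 6277 and 6183 CPM in the 18 mo mice. The 21 mo mice had 3507, 1813 and 469 CPM and the O304 mice 4111, 4935 and 5698 CPM. As with Kl in CPM, the 21 mo group did not overlap either of the others, and replicate 3 was farthest away, 12.1 times below the 18 mo mean. Slc34a1 differed by −1.56 on the log2 scale for 21 mo versus 18 mo (SE 0.61, adjusted p = 0.154, edgeR) and 1.35 for 21 mo/O304 versus 21 mo (SE 0.61, adjusted p = 0.249, edgeR). Without replicate 1 of the 21 mo group these became −2.30 and 2.095 and passed the threshold, at an adjusted p of 0.0197 and 0.0284 (edgeR). Without replicate 3 they were −1.11 and 0.89 and did not. DESeq2 with all libraries placed Slc34a1 past the threshold in 21 mo versus 18 mo (log2 fold change −1.56, adjusted p = 0.0335). Compared with the 18 mo group, Slc34a1 under O304 differed by −0.21 (SE 0.60, adjusted p = 0.946, edgeR).
Slc34a3 (ENSMUSG00000006469, chromosome 2, 25228898 to 25234364, minus strand) ordered the 21 mo mice as Slc34a1 did, on a much lower scale. It was at 29.9, 30.1 and 61.5 CPM in the 18 mo group, at 30.8, 11.5 and 2.47 CPM in the 21 mo group and at 27.1, 49.7 and 38.7 CPM in the 21 mo/O304 group. Replicate 1 of the 21 mo group lay inside the 18 mo range, so the groups overlapped, while replicate 3 was 16.4 times below the 18 mo mean. Its log2 fold change was −1.45 (SE 0.71, adjusted p = 0.227, edgeR) for 21 mo versus 18 mo and 1.38 (SE 0.71, adjusted p = 0.288, edgeR) for 21 mo/O304 versus 21 mo. Without replicate 1 of the 21 mo group both passed the threshold, at −2.54 and 2.47, and without replicate 3 they were −0.96 and 0.88 and did not.
Slc20a2 (ENSMUSG00000037656, chromosome 8, 22476788 to 22569612, plus strand) ordered the 21 mo mice as both Slc34 carriers did. Its differences from the 21 mo group had the same signs as theirs but were much smaller. The 18 mo mice held 58.8, 77.9 and 66.6 CPM, the 21 mo mice 61.8, 59.6 and 51.9 CPM and the O304 mice 69.5, 53.6 and 71.0 CPM, so all 3 groups overlapped. Between groups Slc20a2 differed by −0.23 on the log2 scale (SE 0.15, adjusted p = 0.356, edgeR) for 21 mo versus 18 mo and 0.16 (SE 0.15, adjusted p = 0.534, edgeR) for 21 mo/O304 versus 21 mo. The gene overlaps Smim19 on the opposite strand, which held 299 to 500 counts per library, and Gm17491 on the same strand, with 55 to 112, and the sources used here do not say whether reads were counted by strand.

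Among the 5 sodium phosphate carriers of the kidney, Slc34a1 supplied between 96.9% and 97.7% of the summed FPKM in the 18 mo libraries. In replicates 1 to 3 of the 21 mo group its share was 96.3%, 92.6% and 77.5%, and in the O304 group it was 96.5%, 96.4% and 97.1%. In replicate 3 of the 21 mo group the rest was made up by Slc34a2 with 9.72%, Slc20a2 with 6.45%, Slc20a1 with 5.56% and Slc34a3 with 0.808%. Slc34a2, which encodes NaPi-IIb, a carrier best known from lung and intestine, supplied at most 0.229% in the 18 mo libraries. It was at 6.48, 43.3 and 63.1 CPM in the 21 mo mice, against 11.6, 3.94 and 4.35 CPM in the 18 mo mice and 7.15, 3.81 and 5.03 CPM under O304. Replicate 1 of the 21 mo group therefore fell within the 18 mo range while the other two stood far above it. For Slc34a2 the log2 fold change was 2.51 (SE 0.74, adjusted p = 0.0921, edgeR) for 21 mo versus 18 mo and −2.82 (SE 0.75, adjusted p = 0.175, edgeR) for 21 mo/O304 versus 21 mo.

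**Figure D2:**
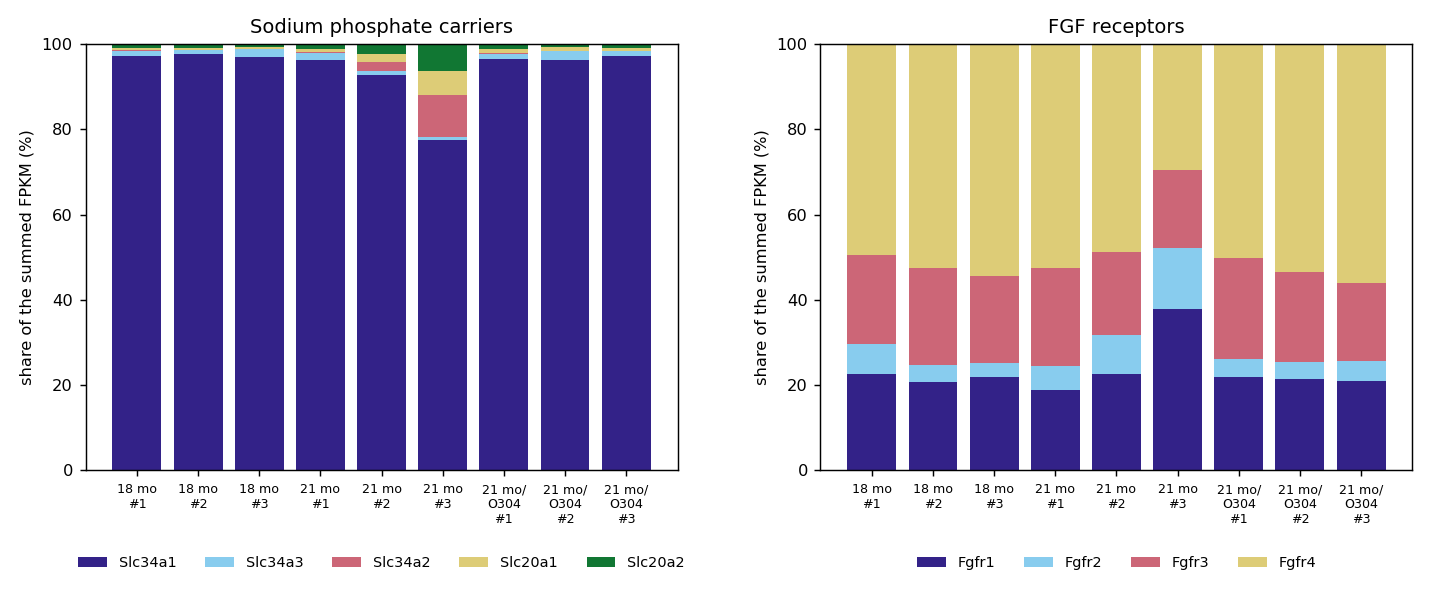
Share of the summed FPKM (%) of each gene among 5 sodium phosphate carriers (left) and 4 FGF receptors (right), 1 bar per library. Slc34a1 takes 77.5% in replicate 3 of the 21 mo group and from 92.6% to 97.7% in the other 8 libraries, and Fgfr1 takes 37.8% of the receptor sum in that library and from 18.9% to 22.7% in the others.

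Vdr (ENSMUSG00000022479, chromosome 15, 97854425 to 97910630, minus strand) encodes the nuclear receptor for calcitriol. It was at 282, 324 and 293 CPM in the 18 mo group, at 293, 189.5 and 89.9 CPM in the 21 mo group and at 359.8, 339 and 357 CPM in the 21 mo/O304 group. Replicate 1 of the 21 mo group lay within the range of the 18 mo mice, the other two were lower, and all 3 O304 mice were above every other library. The log2 fold change was −0.65 (SE 0.34, adjusted p = 0.260, edgeR) for 21 mo versus 18 mo. For 21 mo/O304 versus 21 mo it was 0.88 (SE 0.35, adjusted p = 0.210, edgeR), and for 21 mo/O304 versus 18 mo, whose libraries did not overlap either, 0.23 (SE 0.34, adjusted p = 0.880, edgeR). Without replicate 1 of the 21 mo group the first 2 passed the threshold, at −1.08 and 1.32. Without replicate 3 they were −0.33 and 0.55.

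The vitamin D hydroxylases departed from this order, each in its own way. Cyp27b1 (ENSMUSG00000006724, chromosome 10, 127048250 to 127053006, plus strand) held 1.98, 3.02 and 5.93 CPM in the 18 mo mice. It held 2.67, 10.8 and 58.4 CPM in the 21 mo mice and 7.32, 9.41 and 8.78 CPM in the O304 mice. Replicate 3 of the 21 mo group was 16.0 times above the 18 mo mean, replicate 1 was within the 18 mo range, and the O304 mice were all above the 18 mo mice and overlapped the 21 mo group. The log2 fold change was 2.72 (SE 0.93, adjusted p = 0.118, edgeR) for 21 mo versus 18 mo, and 0.87 without replicate 3 of the 21 mo group (adjusted p = 0.399, edgeR), so its size rests largely on that mouse. DESeq2 placed it past the threshold at 2.71 (adjusted p = 0.0126), as did edgeR without replicate 1 of the 21 mo group at 3.26 (adjusted p = 0.0118). For 21 mo/O304 versus 21 mo it was −1.50 (SE 0.88, adjusted p = 0.338, edgeR), became −2.04 without replicate 1, where it passed (adjusted p = 0.0475, edgeR), and turned to 0.34 without replicate 3 of the 21 mo group. Against the 18 mo group the O304 mice differed by 1.22 (SE 0.91, adjusted p = 0.711, edgeR). The 18 mo libraries rest on 32, 49 and 105 counts of Cyp27b1, so its lowest values are the least precise of the 8 genes.
Cyp24a1 (ENSMUSG00000038567, chromosome 2, 170482708 to 170497145, minus strand) held 68.6, 122 and 141 CPM in the 18 mo mice. The 21 mo mice had 498, 141 and 144 CPM and the O304 mice 181, 298 and 501 CPM. Every library of the older groups was above every 18 mo library, but replicates 2 and 3 of the 21 mo group lay only just above the highest 18 mo mouse. Replicate 1 of the 21 mo group, the mouse closest to the 18 mo mice in Kl, Slc34a3, Vdr and Cyp27b1, was 4.51 times above the 18 mo mean. The log2 fold change was 1.24 (SE 0.56, adjusted p = 0.202, edgeR) for 21 mo versus 18 mo and was 0.38 without replicate 1 of the 21 mo group. For 21 mo/O304 versus 21 mo it was 0.32 (SE 0.55, adjusted p = 0.742, edgeR), and −0.14 without replicate 3 of the O304 group, whereas limma voom with quality weights called it higher at 1.02 (adjusted p = 0.0402). For 21 mo/O304 versus 18 mo it was 1.56 (SE 0.57, adjusted p = 0.453, edgeR). Cyp24a1 overlaps Pfdn4 on the opposite strand, which held 176 to 350 counts per library where Cyp24a1 held at least 1109.
Enzyme activity and calcitriol were not part of these data. The ratio of Cyp24a1 to Cyp27b1 transcript per gene length was 25.1, 29.3 and 17.2 in the 18 mo mice. It was 17.9, 22.9 and 41.3 in the O304 mice, which overlapped that range. In the 21 mo group it was 135, 9.46 and 1.78, so these 3 mice lay on both sides of the other 6 libraries. Replicate 3 came closest to equal levels of both transcripts.

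**Figure D3:**
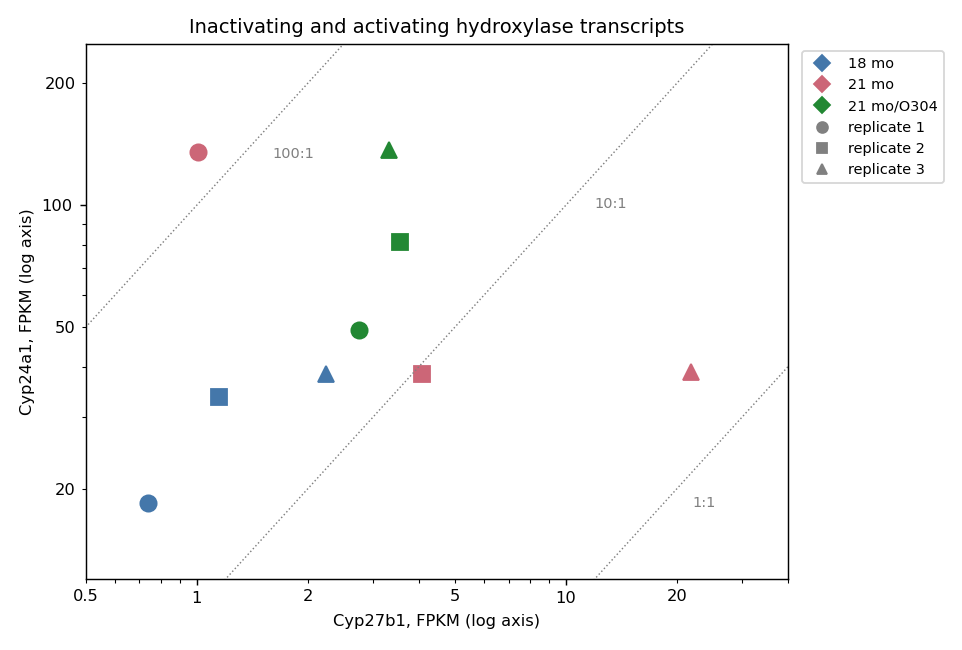
FPKM of Cyp24a1 (vertical, log axis) against Cyp27b1 (horizontal, log axis) in the 9 libraries, with colour for the group and symbol for the replicate, and dotted lines at ratios of 1, 10 and 100 to 1. The 18 mo and 21 mo/O304 libraries lie between ratios of 17.2 and 41.3, and the 21 mo libraries at 135, 9.46 and 1.78.

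Fgfr1 (ENSMUSG00000031565, chromosome 8, 25513654 to 25575718, plus strand), the receptor that pairs with Klotho, held 60.1, 51.2 and 58.9 CPM in the 18 mo mice. It was at 39.9, 43.4 and 68.7 CPM in the 21 mo mice and 58.3, 49.5 and 44.5 CPM under O304. The groups overlapped in every comparison, and replicate 3 of the 21 mo group, lowest in Kl, was highest in Fgfr1. Fgfr1 differed by −0.16 on the log2 scale (SE 0.21, adjusted p = 0.644, edgeR) for 21 mo versus 18 mo and 0.00 (SE 0.21, adjusted p = 1.00, edgeR) for 21 mo/O304 versus 21 mo. Limma voom with quality weights called Fgfr1 lower in the former, at −0.39 (adjusted p = 0.00628). Its sign in the latter comparison was positive in 10 of 17 alternative fits, so no direction is given. Of the other receptors, Fgfr4 supplied the largest share of the receptor FPKM in 8 libraries, between 48.7% and 56.1%, and 29.5% in replicate 3 of the 21 mo group. Fgfr4 was at 48.7 ± 3.10 CPM in the 18 mo group, 30.8 ± 10.5 CPM in the 21 mo group and 44.9 ± 2.72 CPM under O304 (SD, n = 3 each). Fgfr4 differed by −0.66 (SE 0.23, adjusted p = 0.117, edgeR) for 21 mo versus 18 mo and 0.54 (SE 0.23, adjusted p = 0.226, edgeR) for 21 mo/O304 versus 21 mo. Fgfr3 was at −0.49 and 0.34 and Fgfr2 at 0.55 and −0.88 in the same 2 comparisons. Klb, which encodes the co-receptor of other endocrine FGFs, had at most 6 counts in any library.

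In 21 mo versus 18 mo, 0 of the 8 genes had an adjusted p under 0.05 in edgeR's test, where 3 of 15902 tested genes did, or 0.0189%. Of the 8, 3 reached an unadjusted p under 0.05, Kl, Slc34a1 and Cyp27b1, against 26.1% of all tested genes. In CPM the groups did not overlap in 3 of the 8, Kl, Slc34a1 and Cyp24a1, against 28.7% of all, though Kl did overlap in FPKM. DESeq2 called 2 of the 8, Slc34a1 and Cyp27b1, against 12.3% of all genes. Limma voom with sample quality weights called 6, all but Slc20a2 and Cyp24a1, against 52.9% of all, and edgeR without replicate 1 of the 21 mo group called 5, against 25.4%. The median log2 fold change of the 8 genes was −0.44, with 6 lower and 2 higher, beside a median of 0.03 over all tested genes.
Between 21 mo/O304 and 21 mo, edgeR called 0 of the 8 and 0 of all genes, a background of 0%. Kl and Vdr had an unadjusted p under 0.05, against 20.7% of all genes. Kl, Slc34a1 and Vdr did not overlap between the groups, against 21.3% of all. DESeq2 called 0 of the 8, against 6.07% of all genes. Limma voom with quality weights called 5, Kl, Slc34a1, Slc34a3, Vdr and Cyp24a1, against 41.1% of all, and edgeR without replicate 1 of the 21 mo group called 5, against 23.1%. The median was 0.60, with 6 genes higher and 2 lower, beside −0.02 over all genes. This comparison shares the 21 mo mice with the one above, so their opposite signs are not independent of each other.
For 21 mo/O304 versus 18 mo, edgeR called 0 of the 8 and 0 of all genes, again 0%, and DESeq2 and limma voom with quality weights also called 0 of the 8, against 0.869% and 2.61% of all genes. Cyp24a1 alone had an unadjusted p under 0.05, against 9.66% of all genes. Vdr, Cyp27b1 and Cyp24a1 did not overlap, each higher under O304, against 26.5% of all. The median of the 8 was 0.05, beside 0.00 over all genes. In each comparison the counts by unadjusted p and by overlap exceeded what the background share gives for 8 genes by less than 2 genes. With 3 mice against 3 the exact permutation test (two-sided) on a gene alone cannot give a p under 0.1, which is the value for each of the 3 genes without overlap in each comparison. With 1 library per mouse, these p-values rest on the spread between mice. The edgeR fit shares 1 estimate of the spread per gene over all 9 libraries. Its SE and p for 21 mo/O304 versus 18 mo therefore also carry the spread of the 21 mo mice. For Vdr the SD was 21.7 CPM in the 18 mo group, 101 CPM in the 21 mo group and 11.5 CPM under O304.

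**Figure D4:**
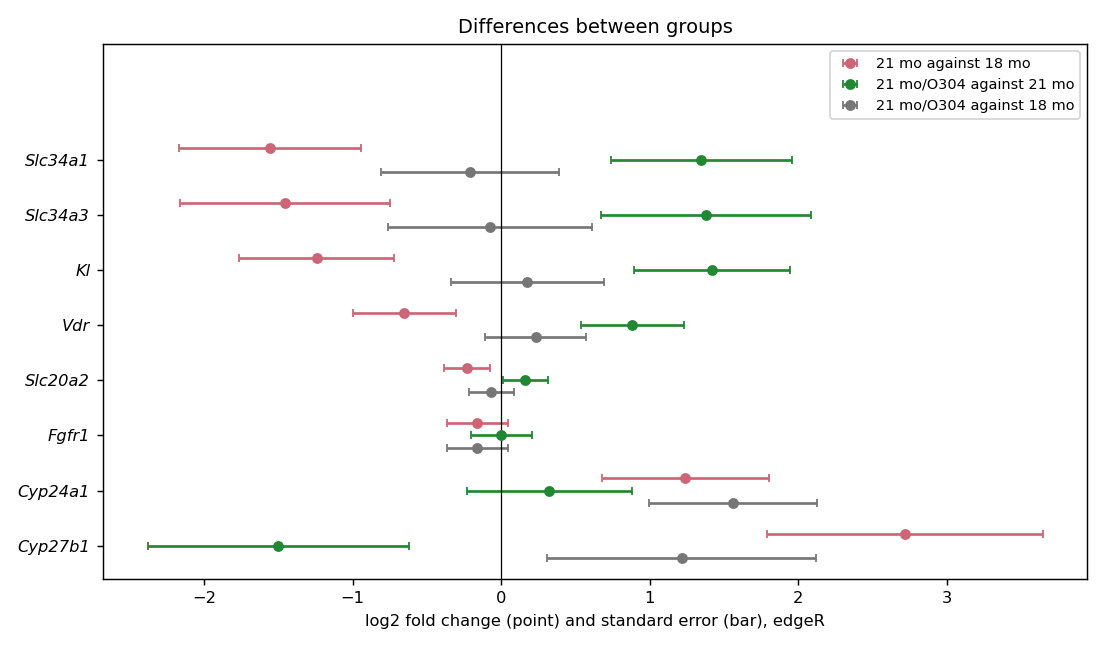
Log2 fold change (point) and standard error (bar) of the 8 genes from edgeR for the 3 comparisons. Slc34a1, Slc34a3, Kl and Vdr lie between −1.56 and −0.65 for 21 mo versus 18 mo and between 0.88 and 1.42 for 21 mo/O304 versus 21 mo, and none passed an adjusted p of 0.05.

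Kl, Slc34a1, Slc34a3, Vdr and Slc20a2 ordered the 21 mo mice alike, with replicate 1 highest and replicate 3 lowest. In Slc20a2 the 3 values were close together, at 61.8, 59.6 and 51.9 CPM. Over the 9 libraries the Pearson correlation of log2 CPM was 0.988 between Kl and Vdr, 0.973 between Kl and Slc34a1 and 0.968 between Slc34a1 and Slc34a3. With Kl it was −0.735 for Cyp27b1, 0.648 for Slc20a2, 0.224 for Cyp24a1 and −0.328 for Fgfr1. These correlations describe 9 libraries whose range is set largely by replicates 2 and 3 of the 21 mo group. In bulk RNA, fewer cells of a type and less RNA per cell cannot be told apart. Markers of the first and second proximal segments, 8 genes including Slc5a2 and Slc22a6 and also Lrp2 and Cubn of the wider pathway, summed to between 6140 and 8358 CPM in the 18 mo mice and to 8326, 4306 and 1487 CPM in the 21 mo mice. Under O304 they summed to between 7514 and 8238 CPM. Relative to the 18 mo mean their geometric mean lay at 0.14, −0.75 and −2.23 on the log2 scale in replicates 1 to 3 of the 21 mo group. Slc34a1 lay at −0.68, −1.63 and −3.58 on the same scale, Slc34a3 at −0.31, −1.73 and −3.95, Kl at −0.34, −1.46 and −2.93, and Vdr at −0.03, −0.66 and −1.74. Slc34a1, Slc34a3 and Kl were therefore below this geometric mean in each of these mice, and Vdr was above it in replicates 2 and 3. Single markers of the 8 differed, with Slc22a6 at 890, 452 and 111.5 CPM and Slc4a4 at 1213, 715 and 431.5 CPM in the 21 mo mice. The 18 mo mice held 1025 to 1778 and 725 to 1091 CPM of these. Markers of the third proximal segment summed to 6741, 3288 and 630 CPM in the 21 mo mice, against 6627 to 8358 CPM in the 18 mo mice.
Markers of distal convoluted and connecting tubule, the segments richest in Klotho, included Calb1 of the wider pathway. They summed to between 2331 and 3420 CPM in the 18 mo mice, to 2335, 1766 and 1781 CPM in the 21 mo mice and to between 3271 and 4260 CPM under O304. Klk1 was the largest part in each library, at 780, 687 and 798 CPM in the 21 mo mice. All 7 of these markers were lower in 21 mo versus 18 mo and all 7 higher in 21 mo/O304 versus 21 mo, and 0 passed the threshold (edgeR). All 6 genes listed as markers of injured proximal tubule were higher in 21 mo versus 18 mo and lower in 21 mo/O304 versus 21 mo. Of these 0 passed the threshold (edgeR). Their sum was 658 to 785 CPM in the 18 mo mice, 1304, 12235 and 14040.0 CPM in the 21 mo mice and at most 1047 CPM under O304. Most of it was Spp1, at 613 to 741 CPM in the 18 mo mice and 1233, 11150.0 and 12520.0 CPM in the 21 mo mice. Which cells made Spp1 was not tested. Havcr1, which encodes the injury marker KIM-1, was at 11.6, 475 and 61.0 CPM in the 21 mo mice and at most 23.5 CPM in the 18 mo mice and 12.03 CPM under O304. Macrophages can also make Cyp27b1, and their markers summed to between 275 and 466 CPM in the 18 mo mice and to 701, 1134 and 3423 CPM in the 21 mo mice. Of this sum Lyz2 alone made up 317, 690 and 2190 CPM in the 21 mo mice. Under O304 macrophage markers summed to 521 to 548 CPM. All 7 macrophage markers were higher in 21 mo versus 18 mo and lower in 21 mo/O304 versus 21 mo, and 0 passed the threshold (edgeR). Fibroblast and mural markers summed to 161, 592 and 1493 CPM in the 21 mo mice, against 202 to 303 CPM in the 18 mo mice. Podocyte markers summed to 213, 199 and 591 CPM in the 21 mo mice, against 199.6 to 290.0 CPM in the 18 mo mice and 216 to 371 CPM under O304. Lymphocyte and plasma cell markers summed to 97.0, 108 and 632 CPM in the 21 mo mice, against 106 to 229.6 CPM in the 18 mo mice and 218 to 705 CPM under O304. Most of this was Jchain, at 85.0, 102 and 606 CPM in the 21 mo mice. Adipocyte markers summed to 106 to 204 CPM under O304, against 31.7 to 129 CPM in the 21 mo mice. Most of this was Fabp4, at 147, 101 and 129 CPM under O304 and 127.5, 52.4 and 30.1 CPM in the 21 mo mice. The 4 adipocyte markers that were tested were all higher under O304 than in the 21 mo mice, 0 of them past the threshold (edgeR). Adipoq, which defines fat cells, was at 21.6, 1.97 and 15.1 CPM under O304 and at most 0.502 CPM in the 21 mo mice. The part of these cell types in the levels of the 8 genes was not tested.

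**Figure D5:**
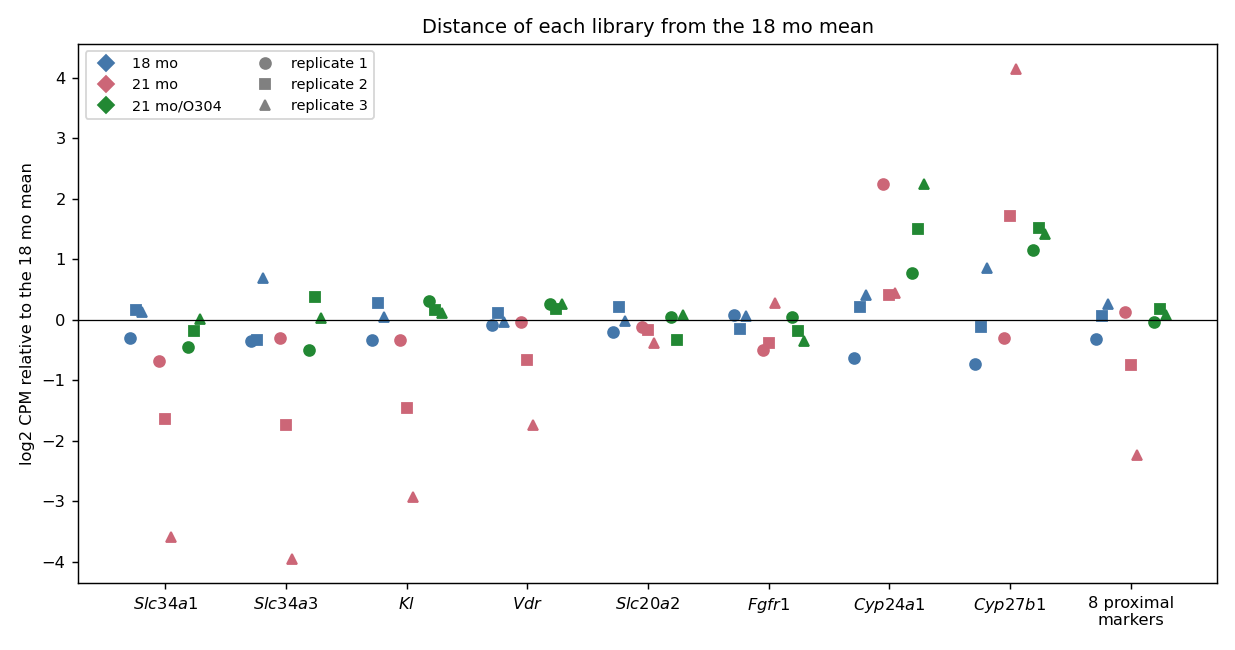
Log2 CPM of each of the 8 genes, and of the geometric mean of 8 proximal tubule markers, relative to the mean of the 18 mo libraries, with colour for the group and symbol for the replicate. Replicate 3 of the 21 mo group lies at −3.95 for Slc34a3, −3.58 for Slc34a1, −2.93 for Kl, −2.23 for the markers and 4.15 for Cyp27b1.

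By a rule on likeness, the protein-coding genes that followed each of the 8 most closely over the 9 libraries were sought among 13149 others. For Kl they were Rbpms2 (r = 0.996), Marchf6, listed in the table under a date-like symbol (r = 0.994), and Fkbp4 (r = 0.994). For Slc34a1 they were Pyroxd2 (r = 0.997), Fbxo36 (r = 0.997) and Tmem8 (r = 0.996), and for Vdr Pank1, Cryz and Vwa8 (r from 0.997 to 0.998). Slc34a3 was followed most closely by Chrna4, Ushbp1 and Pik3c2g (r from 0.986 to 0.988). Cyp27b1 was most like Nrbp1 (r = 0.977), Sertad4 (r = 0.973) and Id1 (r = 0.967). Cyp24a1 was most like Sgk3 (r = 0.966), Irs2 (r = 0.962) and Ube2d3 (r = 0.939). The best matches of Fgfr1, led by Ccdc28b, and of Slc20a2, led by Cox10, reached r of 0.947 and 0.945.

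The wider pathway was followed in a list of 72 further genes, of which 63 were tested. In 21 mo versus 18 mo 27 of them were higher and 36 lower, their median log2 fold change was −0.05, and 0 passed the threshold in edgeR, while DESeq2 called 12 and limma voom with quality weights 41, tools that called 12.3% and 52.9% of all genes. Before adjustment 11 higher and 12 lower genes had p under 0.05, 36.5% of the list against 26.1% of all genes. In 21 mo/O304 versus 21 mo 37 were higher and 26 lower, with a median of 0.13, and 0 passed in edgeR, 5 in DESeq2 and 35 in limma voom, beside 6.07% and 41.1% of all genes in the latter tools. Of these 63, 7 higher and 8 lower genes had an unadjusted p under 0.05, or 23.8% against 20.7% of all genes. In 21 mo/O304 versus 18 mo 0 passed in edgeR, 0 in DESeq2 and 1 in limma voom, and 2 of the 63 had an unadjusted p under 0.05, or 3.17% against 9.66% of all genes.
Parathyroid hormone lowers phosphate uptake and raises calcitriol through its receptor, encoded by Pth1r. Pth1r was at 656, 843 and 795 CPM in the 18 mo mice, 507, 419.8 and 163 CPM in the 21 mo mice and 632, 679 and 707 CPM under O304, without overlap between the 21 mo group and the others. Its log2 fold change was −1.07 (SE 0.36, adjusted p = 0.114, edgeR) for 21 mo versus 18 mo and 0.89 (SE 0.36, adjusted p = 0.218, edgeR) for 21 mo/O304 versus 21 mo. The scaffold proteins that hold NaPi-IIa at the brush border are encoded by Slc9a3r1 and Pdzk1. Slc9a3r1 was at 477 ± 39.0, 276 ± 78.2 and 359 ± 4.85 CPM in the 18 mo, 21 mo and 21 mo/O304 groups, and Pdzk1 at 498 ± 48.1, 255 ± 188 and 447 ± 25.2 CPM (SD, n = 3 each). Slc9a3r1 did not overlap between the 18 mo group and the 21 mo group, and differed by −0.79 on the log2 scale (SE 0.21, adjusted p = 0.0827, edgeR). The 6 genes listed with the scaffolds were Slc9a3r1, Slc9a3r2, Pdzk1, Pdzk1ip1, Ezr and Slc9a3. Of these 5 were lower in 21 mo versus 18 mo and 5 higher in 21 mo/O304 versus 21 mo. Ezr went the other way in both, and Slc9a3 was at only 0.05 in the latter.
Klotho is released from the cell surface by proteases encoded by Adam10 and Adam17. Adam10 held 65.3, 73.8 and 70.1 CPM in the 18 mo mice, 89.6, 108 and 132 CPM in the 21 mo mice and 81.3, 84.1 and 80.3 CPM under O304, so the 21 mo mice were above all others. The difference on the log2 scale was 0.65 (SE 0.15, adjusted p = 0.0679, edgeR) for 21 mo versus 18 mo and −0.42 (SE 0.15, adjusted p = 0.187, edgeR) for 21 mo/O304 versus 21 mo. Adam17 differed by 0.58 (SE 0.15, adjusted p = 0.0805, edgeR) and −0.38 (SE 0.15, adjusted p = 0.215, edgeR), in the direction opposite to Kl in both comparisons. Bace1, the remaining gene of the 3 listed for Klotho shedding, stood at −0.01 and −0.06 and overlapped between all groups.
Of the carriers outside the Slc34 family, Slc20a1, which encodes PiT-1, was at 27.9 ± 3.76, 37.1 ± 8.85 and 46.8 ± 4.74 CPM in the 18 mo, 21 mo and 21 mo/O304 groups (SD, n = 3 each). Its log2 fold change for 21 mo/O304 versus 18 mo was 0.75 (SE 0.19, adjusted p = 0.337, edgeR), with every O304 mouse above every 18 mo mouse. The phosphate exporter gene Xpr1 was at −0.29 for 21 mo versus 18 mo and 0.53 for 21 mo/O304 versus 21 mo, within the spread between mice.
In the supply of vitamin D, Lrp2, which encodes megalin, and Cubn, which encodes cubilin, take up filtered vitamin D with its carrier protein. Lrp2 was at 3216, 1338 and 317 CPM and Cubn at 696, 341 and 84.3 CPM in the 21 mo mice, so that replicate 1 was above the 18 mo range of both genes and replicate 3 far below it. Their log2 fold changes for 21 mo versus 18 mo were −0.45 and −0.22. The hydroxylase gene Cyp2r1 was at most 2.97 CPM in any library, and Cyp27a1 differed by −0.29 and 0.39 in the comparisons with the 21 mo group. Rxra, which encodes the partner of the vitamin D receptor on DNA, was at 192 ± 18.9, 122 ± 41.9 and 186 ± 6.35 CPM in the 3 groups (SD, n = 3 each). On the log2 scale Rxra differed by −0.65 (SE 0.23, adjusted p = 0.123, edgeR) for 21 mo versus 18 mo and 0.60 (SE 0.23, adjusted p = 0.204, edgeR) for 21 mo/O304 versus 21 mo.
Distal calcium transport is a known target of calcitriol. Its genes did not share a direction, with 4 of 10 higher and 6 lower in 21 mo versus 18 mo. The calcium channel gene Trpv6 was at 1.20, 5.90 and 14.8 CPM in the 21 mo mice against at most 0.990 CPM in the 18 mo mice and 2.21 CPM under O304, a log2 difference of 3.09 (SE 0.77, adjusted p = 0.0770, edgeR) for 21 mo versus 18 mo. The related channel gene Trpv5 differed by 0.98 (SE 0.38, adjusted p = 0.148, edgeR). The calcium-binding protein genes Calb1 and S100g were at −0.26 and −0.54 in that comparison, and at 0.97 (SE 0.32, adjusted p = 0.182, edgeR) and 1.12 (SE 0.47, adjusted p = 0.230, edgeR) for 21 mo/O304 versus 21 mo. The calcium-sensing receptor gene Casr overlapped between all groups.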

How the data were processed

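Kidney RNA of 9 mice was analysed, 1 library per mouse. Per the labels and the study's methods, the authors aligned reads with HISAT2 (v2.0.5) to GRCm38 and made counts per gene with featureCounts (v1.5.0-p3). Strandedness and the handling of multiply mapping reads are not given in the sources used here. The deposited counts are not normalized, and the deposited FPKM values are the authors' counts scaled by library and gene length. Columns with the authors' own group means, fold changes and p-values from DESeq2 (1.20.0) were not used.

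Genes were kept by edgeR's filterByExpr (minimum count 10, minimum total 15). Counts were TMM-normalized and fitted with 3 group means over all 9 libraries (6 residual degrees of freedom) with glmQLFit and glmQLFTest of edgeR 4.0.16 in R 4.3.3. P-values were adjusted by Benjamini-Hochberg over all 15902 tested genes, with a threshold of 0.05. The standard error was taken as the fold change divided by the square root of F. One count was worth 0.0458 to 0.0669 CPM, which covers counting error only. A count of 0 was given an upper limit of 3 counts per library. Alternatives used DESeq2 1.42.0, upper-quartile scaling, other count filters, the 6 libraries compared, a replicate block, limma 3.58.1 (voom with sample quality weights, and a trend fit on log2(FPKM + 1) for genes of mean FPKM of at least 0.5), and each library left out. The fits were tested on simulated data.

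Genes named from the pathway list were fixed by symbol in a rule, and the 3 protein-coding genes of highest Pearson correlation with each of the 8 were named. The 8 genes and all lists were chosen with earlier results of these data known. Gene positions were those deposited with the counts.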

Additional observations from a re-analysis of the deposited data

How the results depend on the processing

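The call rests on the method and on 1 mouse. In 21 mo versus 18 mo, 3 of all genes were called by edgeR, 2059 by DESeq2, 8409 by limma voom with sample quality weights, 576 with every gene of at least 1 count kept, and 0 with only the 6 libraries compared or with the replicate block. DESeq2 called 2 of the 8 genes and 12 of the pathway list, beside 12.3% of all genes. Voom called 6 and 41, beside 52.9% of all genes. The filter of 1 count called 2 of the pathway list. In 21 mo/O304 versus 21 mo, DESeq2 called 947 of all genes, or 6.07%, and 5 of the pathway list. Voom called 6528, or 41.1%, with 5 of the 8 genes and 35 of the pathway list. The filter of 1 count gave 17 of all genes and 1 of the pathway list. In 21 mo/O304 versus 18 mo, DESeq2 called 126, the 6 libraries compared 22, and voom 415, or 2.61%, with 1 of the pathway list. Leaving out a library gave 0 to 4186, 0 to 3808 and 0 to 12 calls over all genes in the 3 comparisons, in this order. For the 8 genes it gave 0 to 5 calls in each of the first 2 and 0 in the last, and for the pathway list 0 to 24, 0 to 22 and 0. The 5 calls, 4186 and 3808 came without 21 mo replicate 1, where 25.4% and 23.1% of all tested genes were called. The 5 were Kl, Slc34a1, Slc34a3, Vdr and Cyp27b1. The cause was not tested.

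The sign of Fgfr1 in 21 mo/O304 versus 21 mo turned with DESeq2 (0.007554), the 6 libraries compared (0.0001017), the replicate block (0.0252), voom (0.2168) and the log2(FPKM + 1) fit (0.02922), and ran from −0.1537 to 0.293 as a library was left out. In 21 mo versus 18 mo, leaving out a library gave −0.4619 to 0.002882 for Fgfr1. In 21 mo/O304 versus 21 mo the same gave −0.1353 to 1.185 for Cyp24a1 and −2.038 to 0.3404 for Cyp27b1. In 21 mo/O304 versus 18 mo it gave −0.1605 to 0.05947 for Slc20a2 and −0.2951 to 0.3652 for Slc34a3. For Kl, Slc34a1, Slc34a3 and Vdr the sign in both comparisons with the 21 mo group was kept in 17 of 17 alternatives.

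Deviations from the group means of same-numbered mice correlated from −0.13 to 0.175. Of 18 matches of a library to the 3 mice of another group, 10 were highest with the same replicate number. Whether the numbers pair mice was not tested. The replicate block called 0 of the 8 genes in each comparison.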

Other observations

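Outside the rule for naming genes, Gc, which encodes the vitamin D binding protein, was picked after its values were seen, as it had the lowest adjusted p of the pathway list in 21 mo against 18 mo. It was at 20.2, 18.7 and 23.4 CPM in the 18 mo mice, at 95.0, 256 and 129 CPM in the 21 mo mice and at 45.1, 30.0 and 20.5 CPM under O304. All 3 of the 21 mo mice were above every other library, replicate 1 included, which was not so for Cyp27b1. The log2 fold change was 2.95 (adjusted p = 0.0626, edgeR) for 21 mo against 18 mo and −2.33 (adjusted p = 0.175, edgeR) for 21 mo/O304 against 21 mo. Gc is known mainly as a liver gene, and the cells it came from here were not tested.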
